A study of Mus musculus with 15 samples.

Results

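FoxO transcription factors are forkhead proteins that insulin and growth factor signalling keeps out of the nucleus. In the nucleus they bind forkhead motifs and are known to raise genes for stress resistance, autophagy, cell cycle arrest and the switch from glucose to lipid as fuel. In β-cells, the insulin-producing cells of the islet, they are known for their part in keeping the cells differentiated under metabolic stress. The 10 genes described here are textbook FoxO targets of this kind, chosen by name: *Sesn1*, *Sesn3*, *Sod2*, *Cat*, *Gadd45a*, *Bnip3*, *Pdk4*, *Bcl6*, *Trib1* and *Klf15*. Each was found as a row of the same symbol, once in each table, among 23699 entries.

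Gene expression was measured by RNA sequencing in 15 libraries of sorted mouse islet cells, given as FPKM (fragments scaled to transcript length and sequencing depth). Controls were triple heterozygous for Foxo1, 3 and 4 by the labels, whereas the study calls them wild-type and describes cre mice without floxed alleles or floxed mice without cre. Knockouts were labelled as knockouts of all 3 genes. All mice were of a mixed 129JC57BL/6 background and carried a cre-activated red fluorescent protein (RFP), and RFP+ cells were split by aldefluor, a fluorescent substrate of aldehyde dehydrogenase (ALDH), into ALDH- and ALDH+ cells. The groups were 3 control ALDH-, 5 Foxo knockout ALDH-, 2 control ALDH+ and 5 Foxo knockout ALDH+ libraries. The cre driver was Rip-cre, driven by the insulin promoter, in 9 libraries (control ALDH- replicates 1 and 2, control ALDH+ replicate 1, and knockout replicates 1 to 3 of both populations), and Pdx-cre, which acts in pancreatic precursors, in the other 6. The methods give an age of 6 months for the Rip-cre sort, and no age for the Pdx-cre mice. Nothing states that the libraries of a group came from separate sorts, so p-values measure the spread between these libraries, which may be technical.

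Between 7492220 and 10058043 fragments stood behind a library's listed genes. *Foxo1* checked the genotype labels, for that gene only. It was listed at 20.1, 16.7 and 16.2 FPKM in control ALDH- cells and at 19.6 and 12.0 FPKM in control ALDH+ cells. In the 10 knockout libraries it lay between 0.0925 and 4.24 FPKM, and no knockout library reached a control library, which held in either direction for 0.142% of all tested genes. The fitted difference was -2.57 on the log2 scale (SE 0.316, limma adjusted p = 0.00186). It missed the threshold without control ALDH+ replicate 2 (adjusted p = 0.0516), in the 6 Pdx-cre libraries fitted alone (-2.79, adjusted p = 1), and within ALDH- cells (adjusted p = 0.0604) and ALDH+ cells (adjusted p = 0.201) alone. In its own test of counts, the study lists *Foxo1* with the smallest p between wild-type and knockout ALDH+ cells, lower in knockouts. *Foxo3* was not lower in knockout cells here (-0.08, SE 0.242, limma adjusted p = 0.969). Values were read per gene and not per exon, so whether *Foxo3* was lost in these cells was not tested. *Foxo4*, whose highest value was 1.34 FPKM, had a mean under 1 FPKM. Fitted without a filter on low values it differed by -0.44 (SE 0.12, unadjusted p = 0.00333, adjusted p = 0.273).

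By the data, 3 libraries stood apart through pancreatic acinar transcripts, with *Ctrb1* above 100 FPKM: control ALDH+ replicate 2 and replicate 5 of both knockout populations, all from Pdx-cre mice. Results that change without them are given both ways. Of the 10 β-cell markers, *Ins1* and *Ins2* had no usable estimate, and the other 8 summed to 35600 FPKM or more in every library. Of these 8, 1 was under 1 FPKM in replicate 5 of both knockout populations, so the sum does not show every marker. Endothelial markers summed to 1.48 FPKM or less and mesenchymal markers to 1.14 FPKM or less.

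The RefSeq promoter windows (250 bases before to 50 after a gene's start, build GRCm38.p6) were searched for forkhead letters on both strands. Windows matched 9 of the 10 genes, with 11 windows in all, and *Trib1* had none in the table. GTAAACA, the forkhead core, occurred in 1 of the 11 windows, that of *Sesn1*, and in 3.65% of all 32851 windows. CAAAACA, the letters of the insulin response element, occurred in none of the 11 and in 6.28% of all windows. The *Sesn1* match, on the strand opposite to the gene, begins 23 bases into the transcript and is shown as the only forkhead match of the set. After the values had been seen, the windows were also searched for ACGTG, the core of the hypoxia response element, because *Bnip3* is a known target of hypoxia signalling. ACGTG occurred in the windows of *Bnip3*, *Bcl6* and *Klf15*, and in 19.62% of all windows. In these 3 genes it forms part of CACGTG, which reads the same on both strands, holds the core once on each, and occurred in 7.15% of all windows. *Klf15* holds 3 such sites, beginning 228, 172 and 3 bases before its start, and *Bnip3* and *Bcl6* hold 1 each. The *Klf15* sites are not printed. The stretches below show the matched letters in capitals, each read 5′ to 3′ on the strand of its gene. They are the *Sesn1* match at chr10:41810586-41810612 (plus strand), the *Bcl6* match at chr16:23988897-23988922 (minus strand) and the 250 bases before the start of *Bnip3* at chr7:138909507-138909756 (minus strand). The *Bnip3* capitals begin 108 bases before the start and those of *Bcl6* 60 bases before it. A match is a description of these windows and no evidence of binding.
Sesn1: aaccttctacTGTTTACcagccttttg
Bcl6: tcacggagccCACGTGacggcggcgg
Bnip3: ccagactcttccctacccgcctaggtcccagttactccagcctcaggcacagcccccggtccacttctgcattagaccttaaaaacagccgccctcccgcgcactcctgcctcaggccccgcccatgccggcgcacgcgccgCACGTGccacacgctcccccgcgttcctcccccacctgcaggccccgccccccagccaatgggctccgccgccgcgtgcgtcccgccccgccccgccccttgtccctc

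The first question was whether the loss of Foxo changed these target genes in sorted cells. None of the 9 tested members passed an adjusted p of 0.05 (limma) between knockout and control cells, in ALDH- cells, in ALDH+ cells or in the mean of both. The background was equally low: 0.0178% of 11253 tested genes passed in ALDH- cells, 0% in ALDH+ cells and 0.116% in the mean. At an unadjusted p under 0.05, 0 members passed in ALDH- cells, 0 in ALDH+ cells and 1 in the mean, against 5.78%, 6.61% and 7.7% of all genes. The median difference of the 9 was -0.08 on the log2 scale, beside 0.01 for all tested genes. The intervals given below are for the mean of both populations and are not adjusted for the number of genes. Changes inside them could not have been seen, and larger ones could also have missed the stricter threshold. *Foxo1* itself, at -2.61 in ALDH+ cells, did not pass there (limma adjusted p = 0.201). The tenth member, *Pdk4*, had a mean under 1 FPKM and was left out of the fit.

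*Sod2*, the mitochondrial superoxide dismutase, was the member with an unadjusted p under 0.05. It was listed at 27.1, 28.2 and 44.8 FPKM in control ALDH- cells and at 48.0, 23.7, 56.4, 47.7 and 119 FPKM in knockout ALDH- cells. In ALDH+ cells the values were 18.2 and 46.7 FPKM in controls and 30.0, 28.2, 58.1, 46.6 and 135 FPKM in knockouts. The groups overlapped in both populations, and the highest values, 119 and 135 FPKM, were those of the 2 knockout libraries with acinar transcripts. The mean difference was 0.73 (SE 0.284, 95% interval 0.13 to 1.34, adjusted p = 0.522), the sign being that of a higher level in knockouts. Split by driver, it was 0.76 for Rip-cre (limma adjusted p = 0.83) and 0.70 for Pdx-cre (limma adjusted p = 0.898). In these fits 0 members passed, beside 0.0533% and 0.0355% of all genes. At an unadjusted p under 0.05, 0 and 2 members passed, beside 6.33% and 6.01%. The Pdx-cre value leaned on the knockout libraries at 119 and 135 FPKM. Pdx-cre knockouts without acinar transcripts were at 47.7 and 46.6 FPKM, near the Pdx-cre controls at 44.8 and 46.7 FPKM. Over the alternatives run, the *Sod2* difference lay between 0.22 and 1.00 for Pdx-cre and between 0.54 and 0.91 for Rip-cre.

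*Cat*, catalase, which breaks down hydrogen peroxide, ranged from 0.830 to 13.1 FPKM over the 15 libraries. Its knockout difference was -0.22 (SE 0.379, 95% interval -1.03 to 0.58). The residual spread of *Cat* exceeded that of 92.9% of tested genes, so its interval was wide. Its lowest value was in knockout ALDH+ replicate 1 and its highest in knockout ALDH- replicate 4.

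Both sestrins, stress-induced inhibitors of the growth kinase mTORC1, did not pass between genotypes. *Sesn1* was at 8.23, 10.5 and 9.60 FPKM in control ALDH- cells and at 10.3, 12.5, 9.41, 6.19 and 6.09 FPKM in knockout ALDH- cells. In ALDH+ cells it was at 11.1 and 9.67 FPKM in controls and at 16.0, 8.71, 5.48, 7.39 and 9.86 FPKM in knockouts. The knockout values spanned the control values in both populations, and the difference was -0.15 (SE 0.218, 95% interval -0.61 to 0.32). *Sesn3* ran from 16.5 to 38.3 FPKM over all libraries, with a difference of -0.11 (SE 0.144, 95% interval -0.41 to 0.20). Its residual spread exceeded that of only 14.5% of tested genes, so this interval was narrower than those of most members. *Gadd45a*, a growth arrest and DNA damage gene, ran from 18.7 to 43.7 FPKM with a difference of -0.07 (SE 0.2, 95% interval -0.49 to 0.36).

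*Bcl6*, a transcriptional repressor, *Trib1*, a pseudokinase adaptor of protein degradation, and *Klf15*, a Krüppel-like factor of amino acid and glucose metabolism, overlapped between genotypes too. The knockout difference was 0.33 for *Bcl6* (SE 0.304, 95% interval -0.31 to 0.98). It was -0.08 for *Trib1* (SE 0.138, 95% interval -0.37 to 0.21) and -0.33 for *Klf15* (SE 0.423, 95% interval -1.23 to 0.57). *Klf15* was low in all libraries, from 0.0453 FPKM in knockout ALDH+ replicate 5 to 6.33 FPKM in knockout ALDH+ replicate 4, which are the lowest and highest values of any group and come from the same group. *Bnip3*, an outer membrane receptor for mitophagy and a cell death protein, differed by -0.01 (SE 0.171, 95% interval -0.37 to 0.36).

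**Figure D1:**
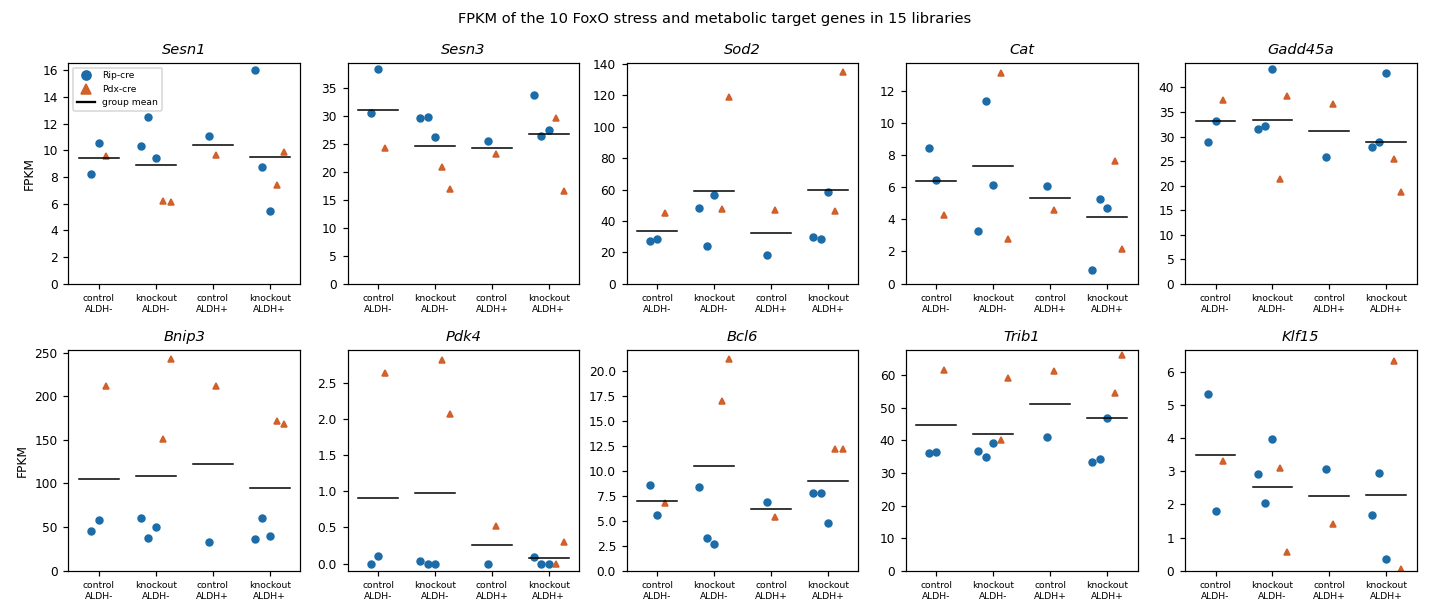
FPKM of each member in the 15 libraries, by group, with Rip-cre libraries as circles, Pdx-cre libraries as triangles and the group mean as a line. Pdx-cre triangles lie above every Rip-cre circle for Bnip3, and the knockout and control groups overlap for all 10 genes.

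Other FoxO target genes were listed for comparison. Of 22 such genes, 16 were tested, and 0 passed the adjusted threshold in the mean genotype comparison, with a median of -0.14. *Irs2*, an insulin receptor substrate, differed by -0.32 (SE 0.226, adjusted p = 0.842). *Insr*, the insulin receptor, differed by 0.21 (SE 0.136, adjusted p = 0.796). *Txnip*, which binds thioredoxin, differed by -0.22 (SE 0.202, adjusted p = 0.897). Of 16 family relatives of the members, 0 passed, and *Sesn2*, the third sestrin, was at -0.36 (SE 0.159, adjusted p = 0.605).

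The second question was whether ALDH+ cells, which the study sorts as failing β-cells, differ from ALDH- cells in these genes. None of the 9 tested members passed the limma test in control cells, in knockout cells or in the mean of genotypes, at backgrounds of 1.22%, 0.0178% and 5.98% of tested genes. At an unadjusted p under 0.05, 0 of these 9 passed in any of the 3, against 14.3%, 13.1% and 20.8% of all genes. *Pdk4*, left out of this fit, is given below. No tested member separated ALDH+ from ALDH- libraries without overlap, as 0.711% of all genes did. The median difference of the members was -0.16, beside -0.02 for all genes. *Bnip3* stood at -0.24 (SE 0.171, 95% interval -0.60 to 0.13) and *Trib1* at 0.11 (SE 0.138, 95% interval -0.18 to 0.40). *Sod2* was at -0.19 (SE 0.284, 95% interval -0.79 to 0.41). The genotype by ALDH interaction was passed by 0 members and 0% of genes, with 0 members and 4.23% of genes at an unadjusted p under 0.05. Outside the members, the listed gene *Gabarapl1* was lower in ALDH+ than in ALDH- control cells (-0.87, SE 0.186, limma adjusted p = 0.0392). It did not pass in knockout cells or in the mean of genotypes.

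Among the 20 tested of 22 other antioxidant enzymes, 4 were lower in ALDH+ cells in the mean of genotypes and 0 were higher, with a median of -0.46. Of all genes, 3.76% were lower and 2.22% higher. *Gpx4*, the glutathione peroxidase that reduces lipid peroxides, fell by 0.65 on the log2 scale (SE 0.153, adjusted p = 0.0218). *Prdx2* fell by 0.66 (SE 0.177, adjusted p = 0.0385) and *Prdx1* by 0.64 (SE 0.165, adjusted p = 0.0323), both peroxiredoxins that reduce peroxides. *Sod1*, the cytosolic superoxide dismutase, fell by 0.47 (SE 0.122, limma adjusted p = 0.0312). *Sod2*, its mitochondrial counterpart, did not pass, but its interval (-0.79 to 0.41) includes a fall of that size. A difference between these dismutases was not tested. Nuclear-retained RNAs moved with the same comparison: 5 of 5 were higher in ALDH+ cells, and their summed level was 273 to 1620 FPKM in ALDH- cells and 2060 to 4940 FPKM in ALDH+ cells. *Ppy*, the PP cell hormone, was at -2.10 (SE 0.449, adjusted p = 0.0131). Their part in the enzyme values was not tested.

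**Figure D2:**
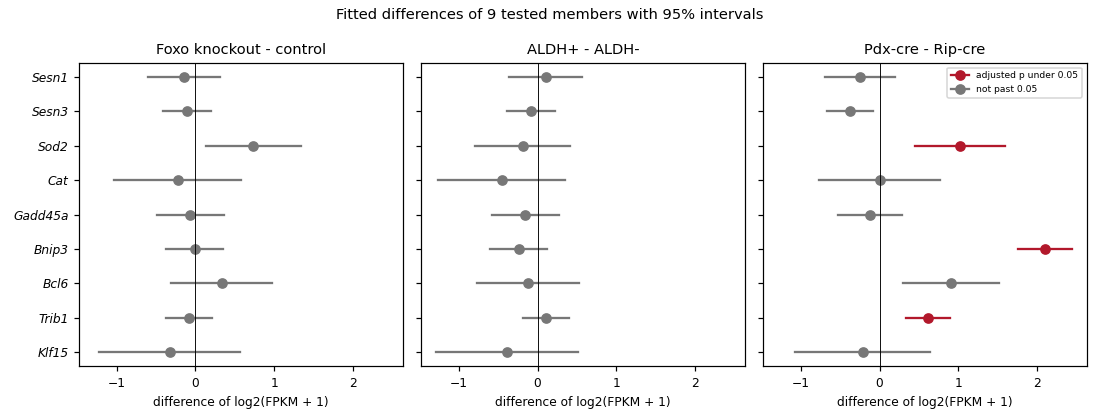
Fitted differences of log2(FPKM + 1) for the 9 tested members with 95% intervals, for knockout against control, ALDH+ against ALDH- and Pdx-cre against Rip-cre. Points in red passed an adjusted p of 0.05, which were Bnip3, Sod2 and Trib1 in the cre comparison and no member in the other 2.

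The libraries were last compared by cre driver, as genotype and ALDH groups held both. Of the 9 tested, 3 were higher in Pdx-cre than in Rip-cre libraries after adjustment for group (limma adjusted p under 0.05) and none was lower, at a background of 9.73% of tested genes (5.68% higher and 4.05% lower). Without adjustment for the number of genes, 5 of the 9 had a p under 0.05, as did 25.7% of all genes. The median of the 9 was 0, beside -0.01 for all genes.

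*Bnip3* (mm9, chr7:146082519-146101189) was listed at 45.0 and 58.5 FPKM in the Rip-cre libraries of control ALDH- cells and at 212 FPKM in the Pdx-cre library. In knockout ALDH- cells it was at 60.4, 37.3 and 49.6 FPKM with Rip-cre and at 151 and 242 FPKM with Pdx-cre. In control ALDH+ cells the values were 32.8 FPKM with Rip-cre and 212 FPKM with Pdx-cre. In knockout ALDH+ cells they were 36.1, 61.0 and 40.3 FPKM with Rip-cre and 172 and 168 FPKM with Pdx-cre. Every Pdx-cre library was above every Rip-cre library, and 1.94% of all tested genes separated the drivers in either direction. The difference was 2.10 (SE 0.163, adjusted p = 1.96e-06), or 4.29-fold, and ranked 4 of 11253 genes by p. It was 2.42 in control cells (adjusted p = 0.00059), where 1 of 9 members and 0.649% of all genes passed, and 1.95 in knockout cells (adjusted p = 6.66e-05). Among all alternatives run it lay between 1.88 and 2.22 and passed in 27 of 27, the removal of the acinar libraries included.

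*Trib1* (mm9, chr15:59480209-59488654) lay between 33.3 and 46.8 FPKM in the 9 Rip-cre libraries, with a median of 36.4 FPKM. In the Pdx-cre libraries it was at 61.5, 40.0, 59.0, 61.1, 54.6 and 66.0 FPKM. A single Pdx-cre library, knockout ALDH- replicate 4 at 40.0 FPKM, lay within the Rip-cre range. The difference was 0.62 (SE 0.132, adjusted p = 0.00819). Without the 3 acinar libraries it was 0.48 (adjusted p = 0.208).

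*Sod2* (mm9, chr17:13200705-13210985) differed by 1.03 (SE 0.27, adjusted p = 0.0254) between drivers. Its Rip-cre libraries ran from 18.2 to 58.1 FPKM with a median of 28.2 FPKM, and its Pdx-cre libraries from 44.8 to 135 FPKM with a median of 47.2 FPKM, so the drivers overlapped. Without the 3 acinar libraries the difference was 0.44 (adjusted p = 0.469). The call was also lost when any of 5 single libraries was left out (control ALDH- replicate 3, knockout ALDH- replicate 5, control ALDH+ replicates 1 and 2, knockout ALDH+ replicate 5), with adjusted p between 0.0537 and 0.08.

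*Pdk4*, a mitochondrial kinase that restrains the use of glucose by blocking pyruvate dehydrogenase (mm9, chr6:5433351-5446278), was listed at 0 or below 0.1 FPKM in all 9 Rip-cre libraries. In the Pdx-cre libraries it was at 2.63 FPKM in control ALDH- replicate 3, at 2.81 and 2.07 FPKM in knockout ALDH- replicates 4 and 5, at 0.512 FPKM in control ALDH+ replicate 2, and at 0 and 0.291 FPKM in knockout ALDH+ replicates 4 and 5. The 3 ALDH- libraries of Pdx-cre mice thus held the high values. The same 3 libraries had the highest sums of alpha cell markers (35800, 17400 and 9550 FPKM, against 5830 FPKM or less in every other library) and of delta cell markers (13600, 9800 and 8250 FPKM, against 2990 FPKM or less). The part of these cells in the *Pdk4* values was not tested. About 79, 96 and 68 fragments stood behind them, and at most 4 behind any Rip-cre value. Fitted without a filter on low values, the cre difference was 1.08 (SE 0.233, limma adjusted p = 0.0213, 16928 genes tested). The fit adds 1 FPKM to each value, which understates the change of so low a gene. The ALDH difference of *Pdk4* was -0.60 in the mean of genotypes (SE 0.245, limma unadjusted p = 0.0314, adjusted p = 0.227). By p it ranked 2345 of 16928 genes there. In knockout cells the ALDH difference was -0.62 (SE 0.278, limma unadjusted p = 0.0462, adjusted p = 0.468).

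*Bcl6* was 0.91 higher with Pdx-cre (SE 0.29, adjusted p = 0.0601) and *Sesn3* differed by -0.38 (SE 0.137, adjusted p = 0.0944), both short of the threshold. *Bcl6* passed without control ALDH+ replicate 1 (adjusted p = 0.041) or control ALDH+ replicate 2 (adjusted p = 0.0415), and *Sesn3* without knockout ALDH+ replicate 4 (adjusted p = 0.0381). *Cat*, *Gadd45a*, *Klf15* and *Sesn1* differed by between -0.25 and 0 and none had an unadjusted p under 0.05.

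**Figure D3:**
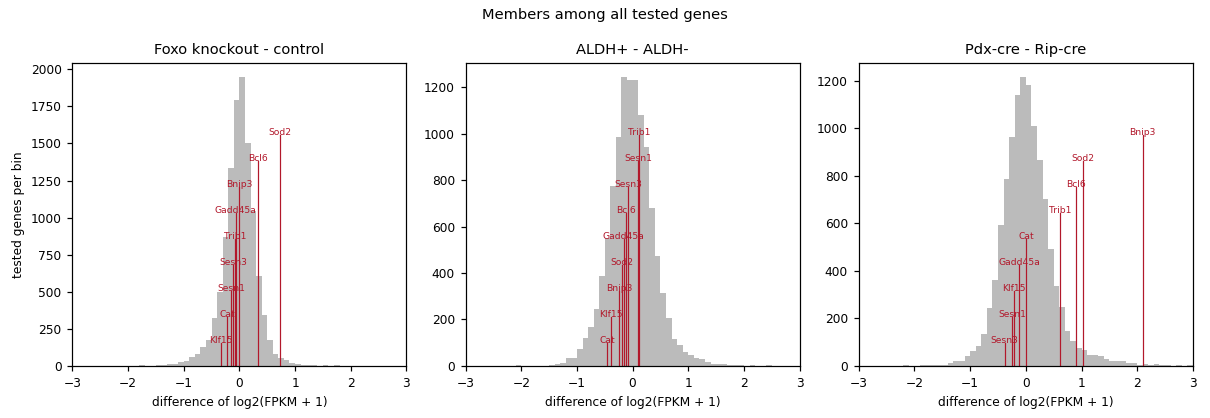
Number of tested genes by fitted difference, in bins of 0.1 on the log2(FPKM + 1) scale, for the 3 comparisons, with the 9 tested members marked by red lines whose heights carry no value. Genes beyond 3 in either direction are not drawn, and Bnip3 at 2.10 lies farthest out among the members in the cre comparison.

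Relatives of the members and other antioxidant genes moved with the driver as well. Of 16 relatives 4 were higher with Pdx-cre and 0 were lower, *Sod1* being counted here and among the antioxidant enzymes. *Pdk1*, a kinase of the same family as *Pdk4*, was 1.59 higher (SE 0.196, adjusted p = 0.000149). *Bnip3l*, the nearest relative of *Bnip3* and also a mitophagy receptor, was 1.07 higher (SE 0.156, adjusted p = 0.000654). *Gadd45g* was 0.71 higher (SE 0.189, adjusted p = 0.0272). Of the 20 tested antioxidant enzymes, 8 were higher and 0 lower, among them *Txn1* (thioredoxin, 0.83, adjusted p = 0.00488), *Prdx5* (1.00, adjusted p = 0.00505) and *Hmox1* (heme oxygenase, 1.38, adjusted p = 0.00759). Of the 16 tested FoxO targets outside the members, *Cdkn1a*, the cell cycle inhibitor p21, was the 1 higher gene (0.99, SE 0.139, adjusted p = 0.000421).

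Markers of other cells moved with the driver. Alpha cell markers summed to between 157 and 1020 FPKM with Rip-cre and between 277 and 35800 FPKM with Pdx-cre, delta cell markers to between 414 and 1300 FPKM and between 752 and 13600 FPKM, and the PP cell hormone *Ppy* to between 97.4 and 777 FPKM and between 127 and 8980 FPKM. The 5 acinar markers summed to at most 1.72 FPKM with Rip-cre and to between 0.14 and 1350 FPKM with Pdx-cre. Macrophage or leukocyte markers summed to between 20 and 37.7 FPKM with Rip-cre and between 34.8 and 150 FPKM with Pdx-cre. Of these 4 genes, 2 or 3 were under 1 FPKM in every library, so the sum does not show every marker. *Cd68* passed (1.46, limma adjusted p = 0.00146), and *Ptprc*, which defines leukocytes, was at most 0.0214 FPKM. Duct markers summed to between 104 and 339 FPKM with Rip-cre and between 140 and 715 FPKM with Pdx-cre. Of these 3 genes, 1 or 2 were under 1 FPKM in every library, and *Krt19* alone passed (1.90, adjusted p = 0.0204). Of 8 tested β-cell markers 6 were lower with Pdx-cre, led by *Slc2a2*, the glucose transporter of β-cells, at -2.87 (SE 0.24, adjusted p = 3.38e-06). Of 10 immediate early and heat shock genes 6 were higher with Pdx-cre. Their part in the member differences was not tested. In bulk samples, fewer cells of a type and less RNA per cell cannot be told apart.

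The genes whose levels over the 15 libraries ran most like those of the 3 higher members were also sought, as a description only. *Bnip3* ran with *Mif* (Pearson r of log2 values 0.975) and *Pgk1* (0.971), *Trib1* with *Sorl1* (0.945) and *Fbp2* (0.944), and *Sod2* with *Ctsl* (0.916) and *Lrg1* (0.913). These libraries share the split by cre driver. Among the members themselves, *Bnip3* and *Trib1* had the highest r, 0.829, and *Sesn3* and *Sod2* the lowest, -0.703.

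Because both genotypes were sorted with both drivers, the genotype difference was also fitted within each driver, a choice made after the values had been seen. No member passed the adjusted threshold in the genotype by cre interaction (limma), which 0% of genes did, and 2 of 9 members, beside 4.9% of all genes, had an unadjusted p under 0.05. *Bcl6* was at 6.78 and 5.43 FPKM in the 2 Pdx-cre controls and at 17.0, 21.2, 12.2 and 12.2 FPKM in the 4 Pdx-cre knockouts, each above both controls, a pattern singled out after its values were seen. With Rip-cre it was at 8.62, 5.62 and 6.84 FPKM in controls and at 8.44, 3.27, 2.69, 7.77, 7.77 and 4.80 FPKM in knockouts. The genotype difference was 1.16 with Pdx-cre (SE 0.404, adjusted p = 0.661) and -0.24 with Rip-cre (SE 0.337, adjusted p = 0.969), and their difference was 1.40 (SE 0.526, unadjusted p = 0.0179, adjusted p = 0.993). Within knockout cells *Bcl6* was 1.37 higher with Pdx-cre (SE 0.301, adjusted p = 0.0199), and 2 of 9 members passed there, at a background of 4.43%.

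*Gadd45a* was the other member with an interaction at an unadjusted p under 0.05. With Pdx-cre it was at 37.5 and 36.6 FPKM in controls and at 21.4, 38.2, 25.5 and 18.7 FPKM in knockouts, so 1 knockout library exceeded both controls. With Rip-cre the controls were at 28.9, 33.1 and 25.7 FPKM and the knockouts between 27.9 and 43.7 FPKM. The interaction was -0.90 (SE 0.348, unadjusted p = 0.0207, adjusted p = 0.993). For both genes the Pdx-cre control value rests on 2 libraries.

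**Figure D4:**
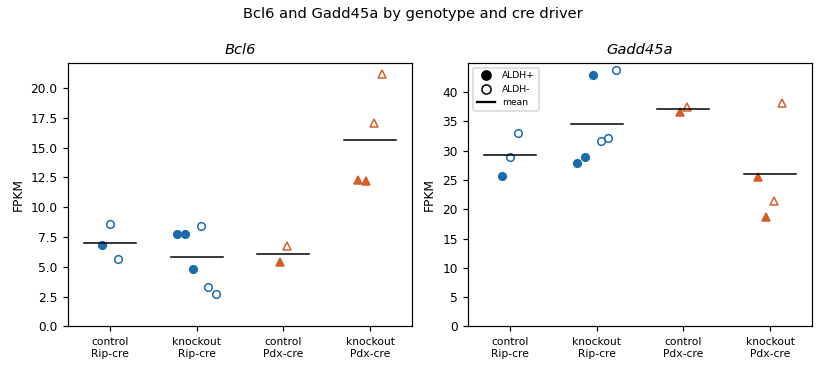
FPKM of Bcl6 and Gadd45a by genotype and cre driver, with filled points for ALDH+ and open points for ALDH- libraries and the mean as a line. The 4 Pdx-cre knockout libraries of Bcl6 lie between 12.2 and 21.2 FPKM, above the 2 Pdx-cre controls at 5.43 and 6.78 FPKM.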

How the data were processed

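The authors deposited, for each of 15 libraries, a gene table of FPKM values with confidence bounds, in the layout of Cufflinks. The submitters' processing notes name bcl2fastq 1.8.4, TopHat2 2.0.4 and build mm9; a quantifier version is not given in the sources used here. The study tested counts with DESeq, and read counts were not analysed here, so a test for log2 values took the place of a count test. Symbols listed more than once (248) and failed or too-deep entries (63 lines) were left out, which left 22924 genes. Fragments behind a value were worked out from its confidence bounds, and 67.2% of those under 500 were within 0.02 of whole; they cover counting error only. Scaling between libraries used trimmed means of M-values without weights (30% and 5% trimmed). After adding 1 FPKM, limma 3.58.1 (R 4.3.3, trended prior variance) was run on the log2 scale with 4 groups and the cre driver. Genes with a mean of at least 1 FPKM were tested (11253), with Benjamini-Hochberg adjustment and two-sided tests. The procedure was tested on simulated data. The members, gene lists and tests were chosen with earlier results of these data known. All members were named. Of the listed genes past the threshold, a part were named, up to 4 a list, and the rest were not. Other listed genes were named after their values had been seen. Alternatives covered scaling, pseudocount, filter, length trend, array weights, replicate block and each library left out.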

Additional observations from a re-analysis of the deposited data

Results flagged for a closer look

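In a check of 20 sets of 5 knockout libraries (each of the 10 members in each knockout population) for a single library far from the rest, 1 was flagged, as chance would do for about 1 set in 20. *Trib1* in knockout ALDH- replicate 5 was the highest of its group at 59.0 FPKM, with a gap to the next library of 0.887 of the group's range on the log2 scale. That library is one of the 3 with acinar transcripts and one of 2 Pdx-cre libraries in its group. Control groups of 2 and 3 libraries were not checked.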

How the results depend on the processing

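Of 2161 recomputed differences of members and comparisons, 2150 kept their side of the threshold, 3 gained a call, 8 lost one, and no called difference changed sign; 156 uncalled ones changed sign. No alternative gave a called member in the genotype, ALDH or interaction comparisons. The count of 3 members higher with Pdx-cre fell to 1 (*Bnip3*) without the 3 acinar libraries, an alternative added after the data had been seen; 132 genes then passed instead of 1095, with fewer libraries in the fit. With each library left out in turn 2 to 4 members passed in either direction, 2 or 3 of them higher; the 4 included *Sesn3*, which was lower. Without a filter it was 3, with *Pdk4* in place of *Sod2* (adjusted p = 0.0691). Leaving out a control ALDH+ library left 1 in that group, assumed to vary like the others. The replicate block gave 3 members in the cre comparison and 0 in the others. Whether replicate numbers pair the libraries is not known, except that control replicates 2 cannot be a pair. The ALDH- library of that number was Rip-cre and the ALDH+ library Pdx-cre. A block by number joined them, and they are among the same-numbered libraries below (0.038). Correlations of same-numbered deviations lay between -0.045 and 0.07. Those of differently numbered knockout libraries with the same driver lay lower, between -0.289 and -0.061. Both sets are deviations around fitted means, so values near 0 do not show a lack of pairing. With 2 control ALDH+ libraries, the intervals of that group limit what could be seen.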
